A study of Homo sapiens with 9 samples.

Results

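Translation initiation factors were measured as 42 genes of the 19775 genes named on the array, in Jurkat, an established line of human leukaemic T lymphocytes. A gene was taken where the platform gave a probe set 1 gene symbol that began with EIF and a digit from 1 to 6, without the eIF2 kinases, the eIF4E binding proteins and the Y linked copy of eIF1A. Each gene stood at the brightest of its probe sets over the 9 arrays, and 28 of the 42 genes had several probe sets, up to 7, which gave 108 probe sets in all. The cells were a single established line placed in electroporation cuvettes. The 3 sham samples sat on the pulser with no power applied. The 3 samples exposed to nanosecond electrical pulses (nsEP) received 100 pulses of 10 ns at 150 kV/cm, and the 3 heat shock samples were warmed in a circulating water bath in the same kind of cuvette. RNA of all 9 samples was taken 4 h after exposure. The labels call the samples biological replicates without naming separate cultures, so p-values measure the spread between these samples. The study also measured a loss of viable Jurkat cells after nsEP, and in bulk RNA fewer cells of a kind and less RNA per cell cannot be told apart.

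Initiation factors bring the small ribosomal subunit, the initiator tRNA and the capped end of an mRNA together. eIF1 and eIF1A hold the small subunit open while it scans for the start codon, eIF2 carries the initiator tRNA, and eIF2B reloads eIF2 with GTP. eIF3 is the largest of the complexes and is the platform on which the others gather, eIF4E binds the cap, eIF4G is the scaffold beside it, and eIF4A unwinds the leader of the mRNA. eIF5 sets off GTP hydrolysis by eIF2, eIF5B joins the large subunit, eIF6 keeps the subunits apart, and eIF5A, despite its name, acts mainly while the ribosome elongates. Cells under stress lower translation chiefly by phosphorylating eIF2 on its alpha subunit and by taking eIF4E away from eIF4G, events on the proteins that an array of transcripts does not read.

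The genes were well expressed, with 41 of 42 at or above the median signal of all probe sets and 39 of 42 in the brightest 25% of probe sets. All 10 T cell markers measured lay above that median, with a summed signal of 67776 to 73771 in sham, 64468 to 94177 in nsEP and 65495 to 86625 in heat shock samples. The sum of 4 myeloid markers was far lower, at 240 to 304 in sham and 509 to 617 after heat shock. That of 5 markers of other organs was 284 to 549 in sham and 1907 to 4655 after heat shock. After heat shock CD14 rose by 4.78 and COL1A1 by 3.89 on the log2 scale. The T cell markers CD2 and CD28 fell by 1.79 and 1.01, and the other T cell markers were not called. CD3D, LCK, CD7 and ZAP70 gave 0.38, 0.36, 0.22 and 0.19, and CD247, CD3G, LAT and CD3E gave -0.57, -0.17, -0.15 and -0.03. The sum of 3 B cell markers was 485 to 740 in sham and 673 to 925 after heat shock. Their part in the results was not tested. The array of nsEP replicate 3 stood apart, at -173 on the second principal component where the other 8 lay between -30.6 and 62.6, and its GAPDH 3′ probe set exceeded the 5′ one by 0.56 on the log2 scale, against -0.22 to 0.26 elsewhere. The same difference for ACTB was 1.24 on that array and 0.31 to 1.26 on the others, with sham replicate 1 the highest. Mean log2 signals of the poly-A spike-ins were 9.74 to 10.74 in sham, 9.89 to 11.16 in nsEP and 11.07 to 11.69 in heat shock samples. EIF4A1, the main eIF4A gene, was read by 3 probe sets that each list several genes, and so has no value here. EIF4A2 stood at a dim probe set for the same reason, and EIF4G3 had no probe set of its own.

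Exposure to nsEP left no initiation factor gene past the test. Of 42 genes 0 were called higher and 0 lower against sham, where 0.0506% of all genes were called higher and 0.0101% lower (limma, Benjamini-Hochberg adjusted p under 0.05, fitted over all 54613 probe sets). EIF3C and EIF6 were the 2 genes with p under 0.05 before adjustment (4.76%, against 5.4% of all genes), and the smallest adjusted p was 0.473. The median log2 ratio was 0.04, against -0.02 over all genes, and the genes ranged from -0.92 for EIF3C to 0.77 for EIF4A2. The 3 nsEP arrays all lay above sham for 2 genes, EIF3H and EIF6, and all below for 2, EIF3C and EIF1AD, where 4.56% and 5.41% of all genes lay so apart. The median standard error was 0.17. For 40 of the 42 genes the 95% interval lay within 1 log2 unit of 0, which bounds their difference at 2-fold in either direction at these probe sets.

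Heat shock gave 1 call against sham, EIF5A2, which fell. None of the 42 was called higher, and the share of all genes called was 1.72% higher and 3.99% lower, or 1.77% and 9.08% among genes in the brightest 25% of probe sets, where 39 of the 42 lie. Before adjustment, 17 of the 42 genes (40.5%) had p under 0.05, against 22% of all genes and 34.7% of the brightest. The median log2 ratio was 0.28, against 0.14 over all genes and -0.05 over that brightest part, and it turned to -0.03 with centred arrays and -0.75 with arrays scaled to the spike-ins. On the arrays, 18 genes had all 3 heat shock values above all 3 sham values and 4 had them below, where 17.5% of all genes lay apart upward and 13.7% downward (17% and 27.2% among the brightest). The arrays of nsEP and heat shock were each compared with the same 3 sham arrays, so their ratios to sham share that error.

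**Figure D1:**
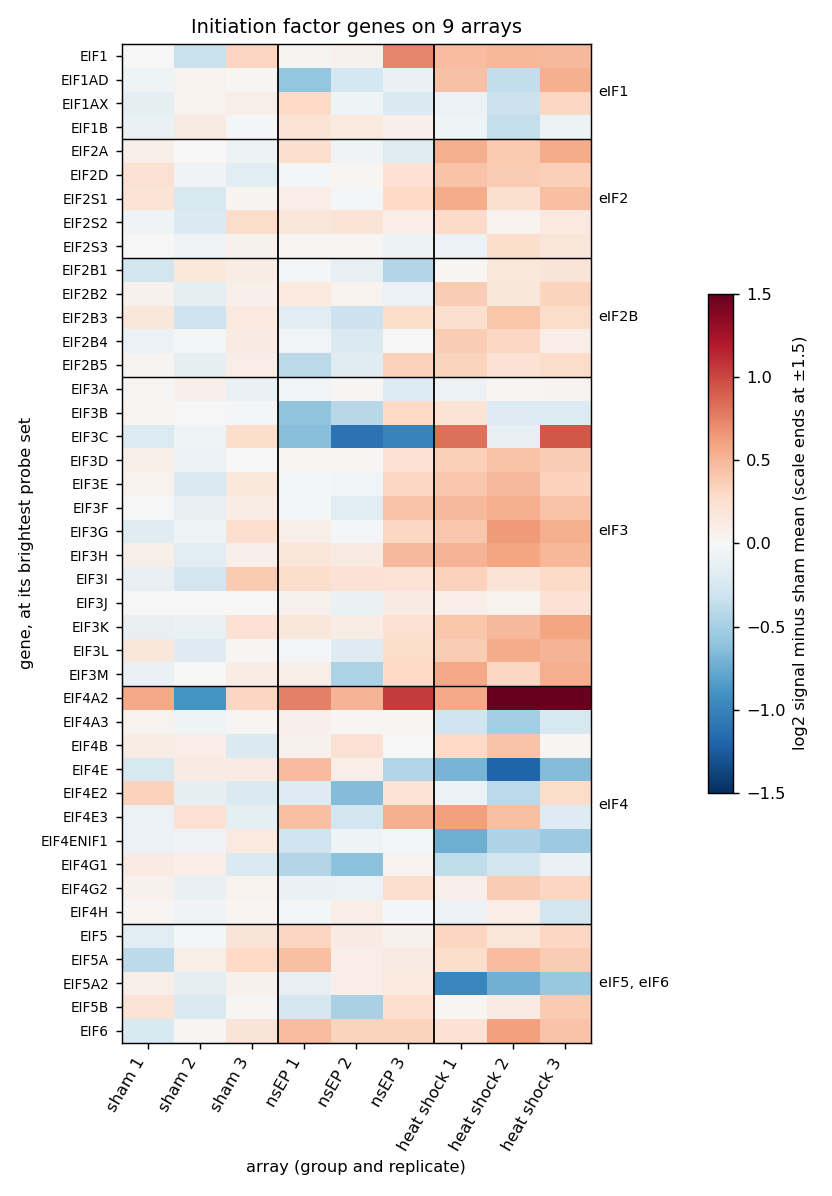
Signal of the 42 initiation factor genes on each of the 9 arrays, as log2 signal minus the mean of the 3 sham arrays, with red higher, blue lower and the colour scale ending at 1.5 in both directions. Most of the 13 eIF3 genes are red in the 3 heat shock columns, while EIF4E, EIF4ENIF1 and EIF5A2 are blue in all 3 heat shock columns.

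Compared directly, 3 of the 42 initiation factor genes were called between nsEP and heat shock. In either direction 5.99% of all genes and 10.9% of genes in the brightest 25% of probe sets were called. EIF4E and EIF5A2 were higher after nsEP and EIF3C was lower, where 3.83% of all genes were called higher and 2.16% lower, or 8.64% and 2.29% among genes in the brightest 25% of probe sets. Before adjustment 14 of the 42 genes (33.3%) had p under 0.05, against 20.9% of all genes and 31.5% of the brightest. All nsEP arrays lay above heat shock for 5 genes and below for 13, against 10.7% and 14.4% of all genes and 21% and 11.8% of the brightest. The median log2 ratio was -0.22, against -0.14 over all genes and 0.03 over the brightest, and it turned to 0.10 with centred arrays and 0.73 with arrays scaled to the spike-ins. This comparison uses the same heat shock arrays as heat shock against sham, and is not a separate measurement of them. Without nsEP replicate 3 the count became 7, with EIF2B5, EIF3F, EIF3L and EIF3M added, all lower after nsEP, and the median became -0.35. Heat shock against sham also had 7 calls without that array, since all 9 arrays share 1 estimate of the spread, and nsEP against sham stayed at 0.

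**Figure D2:**
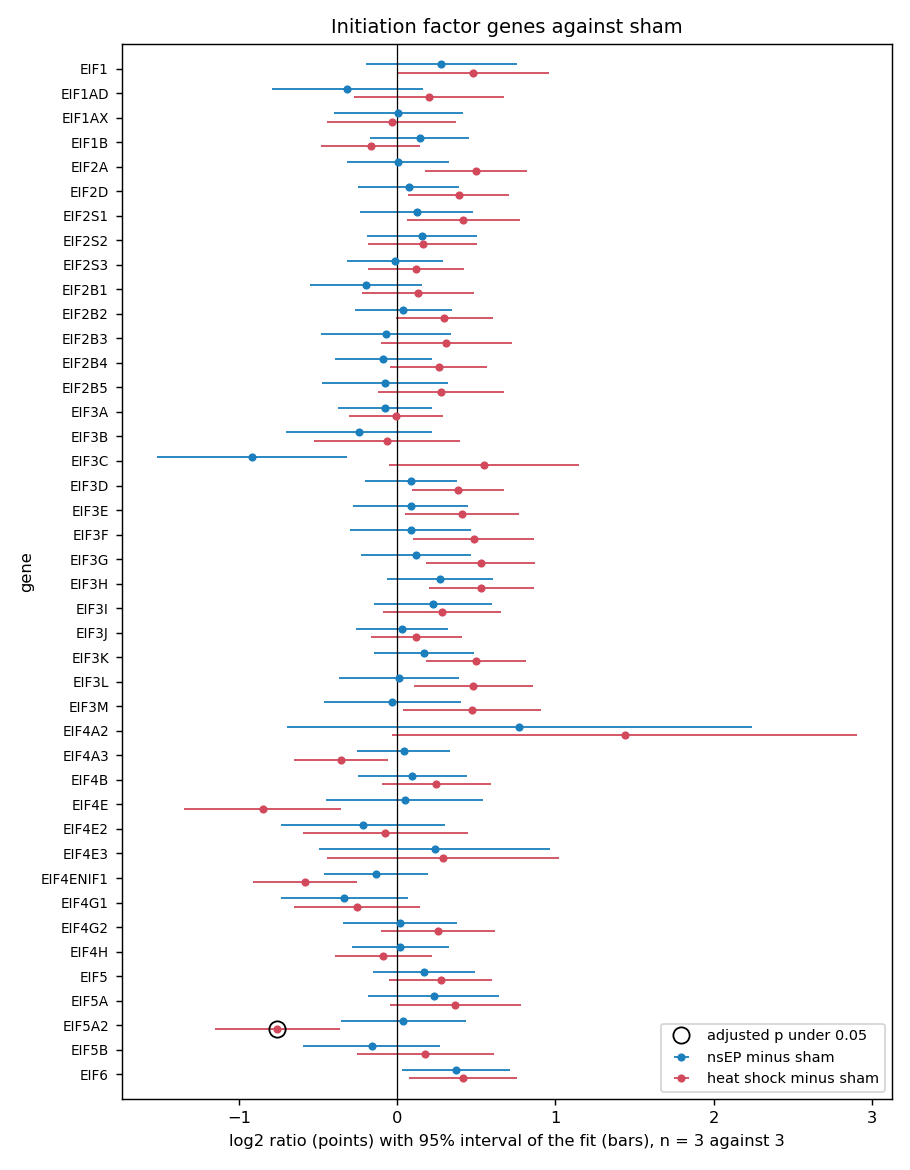
Log2 ratio of each of the 42 genes to sham, with points for nsEP (blue) and heat shock (red), bars for the 95% interval of the fit and a ring around adjusted p under 0.05. The ring stands only at EIF5A2 after heat shock, at -0.76, and the widest bars belong to EIF4A2, whose probe set is dim.

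EIF5A2, the second gene for eIF5A and in most tissues the less used, was the gene called lower after heat shock, at its brightest probe set. Its log2 signals were 9.27, 9.03 and 9.25 in the sham samples. They were 9.06, 9.28 and 9.33 after nsEP and 8.20, 8.46 and 8.61 after heat shock. Every heat shock array lay below every sham and nsEP array, while sham and nsEP overlapped. The log2 ratio of heat shock to sham was -0.76 (SE 0.18, 95% interval -1.15 to -0.36, n = 3 each), a level 1.69-fold lower (limma adjusted p = 0.0363), and nsEP exceeded heat shock by 0.80 (SE 0.18, limma adjusted p = 0.0257). The call against sham ended when any sham or heat shock array or nsEP replicate 2 was left out, with adjusted p between 0.0301 and 0.143 over the 9 arrays left out in turn. The call against heat shock ended without heat shock replicate 1 or 2 or nsEP replicate 2 (adjusted p = 0.108, 0.0636 and 0.0937) and with only the 6 arrays compared (0.0653), and the median over the probe sets of the gene gave -0.09. Its other probe sets, both dimmer, gave -0.01 and -0.29 for heat shock and were not called. EIF5A, the main gene for the same factor, had ratios of 0.23 after nsEP and 0.37 after heat shock, both short of the test.

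EIF4E encodes the cap binding protein. At its brightest probe set the log2 signals were 12.10, 12.47 and 12.47 in sham, 12.83, 12.45 and 11.91 after nsEP, and 11.65, 11.15 and 11.70 after heat shock. The heat shock arrays were the lowest 3 of the 9, and nsEP replicate 3 lay nearest to them. The level was 1.86-fold higher after nsEP than after heat shock (log2 ratio 0.90, SE 0.23, limma adjusted p = 0.0427), a call kept in 1 of the 9 fits that left out an array, the one without nsEP replicate 3. It also missed the threshold with quantile normalization (limma adjusted p = 0.0567), with only the 6 arrays compared (0.0786) and with the replicate number as a block (0.0601). Against sham the heat shock ratio was -0.85 (95% interval -1.35 to -0.35, limma adjusted p = 0.0597), which missed the threshold, and the nsEP ratio was 0.05.

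The next probe sets of EIF4E gave lower values for heat shock than the brightest. At the third brightest the log2 signals were 10.79, 10.75 and 10.50 in sham, 10.66, 10.22 and 10.43 after nsEP and 9.16, 9.14 and 9.41 after heat shock. Heat shock fell by 1.45 on the log2 scale there, or 2.72-fold (SE 0.17, limma adjusted p = 0.000417), and nsEP exceeded it by 1.20 (limma adjusted p = 0.00135). At the second brightest heat shock fell by 1.32 (SE 0.33, limma adjusted p = 0.0435), with sham at 12.02, 12.04 and 11.39 and heat shock at 10.76, 9.82 and 10.92. The remaining probe sets, the dimmest of the 5, gave 0.18 and 1.14 and were not called. The nsEP ratios to sham were -0.33 at the second brightest and -0.25 at the third brightest, neither called.

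**Figure D3:**
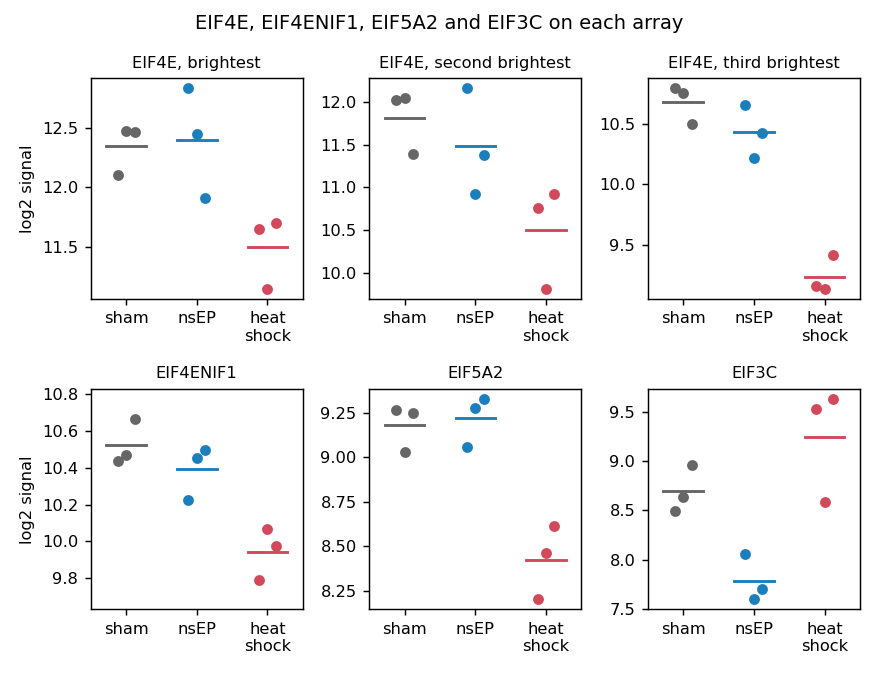
Log2 signal on each array for EIF4E at its 3 brightest probe sets, EIF4ENIF1, EIF5A2 and EIF3C, with points for arrays and lines for the mean of 3, on axes that do not start at 0. Heat shock arrays lie below all sham arrays in each EIF4E panel, in EIF4ENIF1 and in EIF5A2, whereas in EIF3C the nsEP arrays are the lowest.

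The promoters of EIF4E and EIF5A2, the genes called higher after nsEP than after heat shock, are shown for the E-box CACGTG, the site of MYC and related factors. That of EIF3C, called lower, is not shown. Each run is the 250 bases before the start site, 5′ to 3′ on the minus strand, from RefSeq on GRCh38.p14, with the E-boxes in capitals.
EIF4E, chr4:98929134-98929383: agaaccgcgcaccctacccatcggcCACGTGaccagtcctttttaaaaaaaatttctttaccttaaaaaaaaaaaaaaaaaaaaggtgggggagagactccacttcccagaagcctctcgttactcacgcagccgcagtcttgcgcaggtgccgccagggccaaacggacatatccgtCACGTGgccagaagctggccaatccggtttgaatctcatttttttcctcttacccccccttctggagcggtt
EIF5A2, chr3:170908638-170908887: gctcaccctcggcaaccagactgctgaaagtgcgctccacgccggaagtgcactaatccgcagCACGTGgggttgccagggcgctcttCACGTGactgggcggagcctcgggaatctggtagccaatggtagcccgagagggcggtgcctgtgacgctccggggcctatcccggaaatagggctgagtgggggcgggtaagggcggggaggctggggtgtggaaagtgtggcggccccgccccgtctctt
In EIF4E the E-boxes began 225 and 72 bases before the start site, and in EIF5A2 187 and 162 bases before it. Windows from 250 bases before to 50 after the start site were found for 36 of the 42 genes, and 10 of them (27.8%) held a CACGTG, against 8.77% of 27305 genes. The share among genes of like signal was not counted. The 10 were EIF1B, EIF2B3, EIF3F, EIF3K, EIF4A3, EIF4B, EIF4E, EIF4G1, EIF4H and EIF5A2, most of which were not called in any comparison. The inverted repeats of the heat shock element, GAANNTTC and TTCNNGAA, stood in 2 (5.56%) and 3 (8.33%) of the 36, against 8.21% and 9.46% of genes, and TGATGNAA, an ATF4 element, stood in 1, EIF4E3, against 4.46% of genes. All were searched on both strands. CACGTG, GAANNTTC and TTCNNGAA read the same on both. A match says only that the letters occur in the window.

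The other genes of cap binding and unwinding did not move together. The 10 eIF4 genes had a median of 0.03 after nsEP and -0.08 after heat shock, where 4 of 10 ratios were positive and 0 were called. Of the 10, 3 (30%) had an unadjusted p under 0.05 after heat shock, against 22% of all genes and 34.7% of the brightest. EIF4ENIF1, which carries eIF4E into the nucleus and to sites of mRNA storage, read 10.44, 10.47 and 10.67 in sham, 10.22, 10.46 and 10.50 after nsEP and 9.79, 10.06 and 9.97 after heat shock. The heat shock arrays lay below all others, with a ratio to sham of -0.58 (SE 0.15, limma adjusted p = 0.0526), just short of the threshold. Its other probe set, among the dimmest on the array, gave 0.56 after heat shock (SE 0.74, limma adjusted p = 0.743), and the median of the 2 probe sets gave -0.01 against sham and turned nsEP against heat shock from 0.45 to -0.32. EIF4A3, the helicase of the exon junction complex rather than of initiation, had sham values of 13.07, 12.95 and 13.03 and heat shock values of 12.71, 12.49 and 12.77, apart from each other at -0.35 (limma adjusted p = 0.187).

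EIF4G1, the scaffold between the cap and eIF3, overlapped between groups, with 11.53, 11.51 and 11.19 in sham, 10.97, 10.80 and 11.46 after nsEP and 11.03, 11.14 and 11.31 after heat shock. Its ratios to sham were -0.33 and -0.25 (limma adjusted p = 0.786 and 0.512). EIF4A2, a helicase close to EIF4A1 in sequence, had the widest ratios, 0.77 after nsEP and 1.44 after heat shock, with a standard error of 0.68 and sham values that ran from 2.68 to 4.15, so that the groups overlapped. EIF4G2, a relative of eIF4G that lacks the part that binds eIF4E, EIF4B and EIF4H, the helpers of eIF4A, and the cap binding relatives EIF4E2 and EIF4E3 gave heat shock ratios between -0.09 and 0.29, with limma adjusted p of 0.447 or more.

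The eIF3 complex had the highest heat shock median of the 6 roles in the deposited values. The 13 subunit genes EIF3A to EIF3M had a median log2 ratio of 0.47 to sham (-0.55 when scaled to the spike-ins), with 11 of 13 positive. On the arrays 9 of the 13 lay apart upward, where 17.5% of all genes and 17% of the brightest did. However, 0 of 13 passed the adjusted test. Before adjustment 8 (61.5%) had p under 0.05, against 22% of all genes and 34.7% of the brightest. With the median over the probe sets of each gene the eIF3 median was 0.28 and 7 of 13 were positive, EIF3E, EIF3F, EIF3J and EIF3M having turned negative. After nsEP the median was 0.09 and 0 of 13 passed. EIF3H read 13.63, 13.37 and 13.62 in sham, 13.73, 13.68 and 14.03 after nsEP and 14.05, 14.13 and 14.05 after heat shock. Heat shock lay above both other groups, at 0.53 over sham (SE 0.15, 95% interval 0.20 to 0.87, limma adjusted p = 0.0784), the smallest adjusted p among the 13. EIF3G read 12.33, 12.44 and 12.76 in sham and 12.91, 13.14 and 13.06 after heat shock (0.53, limma adjusted p = 0.0906). EIF3K read 12.87, 12.89 and 13.21 in sham and 13.41, 13.47 and 13.58 after heat shock (0.50, limma adjusted p = 0.0806).

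EIF3D, EIF3E, EIF3F, EIF3L and EIF3M gave heat shock ratios between 0.39 and 0.49 with groups apart, EIF3I and EIF3J gave 0.28 and 0.12, and the large scaffold subunits EIF3A and EIF3B gave -0.01 and -0.06. In the nsEP group, replicate 3 held the highest value in 10 of the 13 genes and replicate 2 the lowest in 10. Relative to the sham mean the median eIF3 gene stood at 0.03, -0.04 and 0.28 on nsEP replicates 1 to 3 and at 0.40, 0.42 and 0.42 on the heat shock arrays. By this eIF3 median nsEP replicate 3 was nearer to the heat shock arrays than the other nsEP arrays were.

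The direction of the eIF3 median rested on the scaling of the arrays. Over all genes the heat shock ratio had a median of 0.14 as deposited, 0.00 after quantile normalization, -0.17 where each array was centred at its median and -0.89 with arrays scaled to the spike-ins. The eIF3 median went from 0.47 to 0.07, 0.17 and -0.55 under the same settings, so it was positive under 3 of 4 and negative under the spike-ins, where 1 of the 42 genes had a positive ratio. After quantile normalization eIF2B had the highest median, 0.37. Relative to all genes the eIF3 median was 0.34 as deposited and 0.06 after quantile normalization. Centring and spike-in scaling shift every gene of an array alike, so they cannot change this difference. The median of the 10 eIF4 genes stayed below that of all genes in each scaling, by -0.22, or -0.19 after quantile normalization. In each scaling 4 of the 10 genes lay above the median of all genes. As deposited, the eIF4 median of -0.08 was close to the -0.05 over the brightest genes, so the shortfall depended on the genes compared.

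**Figure D4:**
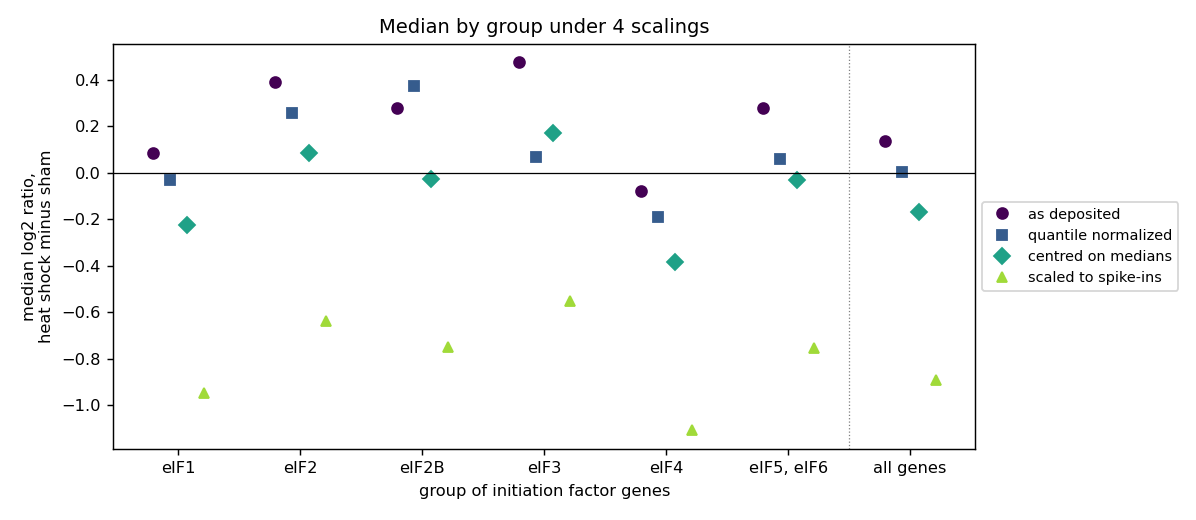
Median log2 ratio of heat shock to sham for each role of initiation factor genes and for all genes, under 4 scalings shown by marker shape. Every group is below 0 under the spike-ins, eIF3 lies at 0.47 as deposited but at 0.07 after quantile normalization, and eIF4 is the lowest role in each scaling.

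EIF3C, a core subunit, was the 1 eIF3 gene called in any of the 3 comparisons, between nsEP and heat shock. Its values were 8.49, 8.64 and 8.97 in sham, 8.06, 7.59 and 7.70 after nsEP and 9.53, 8.58 and 9.63 after heat shock. The nsEP arrays lay below all others, and heat shock replicate 2 lay within the sham range. EIF3C was 2.76-fold lower after nsEP than after heat shock (log2 ratio -1.47, SE 0.28, limma adjusted p = 0.00897), while neither differed from sham past the threshold, at -0.92 (limma adjusted p = 0.473) and 0.55 (limma adjusted p = 0.324). The call ended without heat shock replicate 1 or 3, with limma adjusted p of 0.0515 and 0.0533, and with spike-in scaling, at a ratio of -0.52. It also ended without the variance trend (limma adjusted p = 0.0686) and by the methods' t-test (adjusted p = 0.222). The mean log2 signal of this probe set over the arrays was 8.58, while the other eIF3 genes stood between 12.43 (EIF3B) and 14.76 (EIF3L). The value is uncertain as a measure of the gene, given this lower signal and since EIF3C has a near-identical copy, EIF3CL. In addition, 3 other probe sets that read EIF3C each list several genes and were not used.

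At their brightest probe sets the ternary complex genes and their exchange factor gave positive ratios after heat shock in the deposited values, without a call. With arrays scaled to the spike-ins the ratios were negative. The 5 genes of eIF2 and of the other carriers of initiator tRNA had a median of 0.39 after heat shock, all 5 positive, and 0.07 after nsEP. With the median over the probe sets of each gene the heat shock median was 0.27. Then 3 of 5 were positive, EIF2S1 and EIF2S2 having turned negative. After heat shock 3 of the 5 lay apart upward, where 17.5% of all genes and 17% of the brightest did, and 0 were called. EIF2S1, the alpha subunit that stress kinases phosphorylate, read 13.18, 12.73 and 13.01 in sham, 13.07, 12.95 and 13.27 after nsEP and 13.53, 13.22 and 13.43 after heat shock. At this probe set, its brightest, heat shock exceeded sham on every array, by 0.42 (95% interval 0.06 to 0.78, limma adjusted p = 0.197). The second brightest probe set of EIF2S1 fell, as given below. EIF2A, which can bring initiator tRNA without GTP, read 12.58, 12.49 and 12.42 in sham and 13.04, 12.89 and 13.05 after heat shock, apart by 0.50 (limma adjusted p = 0.0887), with nsEP at 12.75, 12.45 and 12.32. EIF2D had 0.39, EIF2S2 0.16 and EIF2S3 0.12 after heat shock.

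The 5 subunit genes of eIF2B, EIF2B1 to EIF2B5, had a median of 0.28 after heat shock, all 5 positive. It became 0.37 after quantile normalization, again with all 5 positive, -0.03 with centred arrays and -0.75 under the spike-ins. After nsEP the median was -0.08, and 0 were called in either. Their heat shock ratios were close to each other, from 0.13 for EIF2B1 to 0.31 for EIF2B3. EIF2B3 read 10.22, 9.75 and 10.20 in sham, 9.90, 9.73 and 10.32 after nsEP and 10.30, 10.47 and 10.32 after heat shock. EIF2B5, the catalytic subunit, read 10.84, 10.65 and 10.89 in sham, 10.39, 10.62 and 11.14 after nsEP and 11.13, 11.01 and 11.07 after heat shock. In both genes the heat shock arrays lay above sham while nsEP replicate 3 reached them, and the limma adjusted p against sham was 0.42 and 0.462.

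Among the scanning factors, EIF1, which guards the choice of start codon, read 14.72, 14.37 and 15.03 in sham, 14.75, 14.77 and 15.44 after nsEP and 15.17, 15.20 and 15.19 after heat shock. The heat shock arrays lay above sham and close to each other, by 0.48 (SE 0.22, limma adjusted p = 0.272), and the nsEP ratio was 0.28. The next brightest probe sets of EIF1 gave less for heat shock, 0.16, 0.16 and 0.24, all overlapping sham. Their nsEP ratios were 0.20, 0.31 and 0.29. The dimmer probe sets of EIF1 gave 1.01, 0.65 and -0.29 after heat shock. EIF1AD, a small relative of eIF1A, read 11.31, 11.42 and 11.38 in sham, 10.79, 11.10 and 11.27 after nsEP and 11.80, 11.00 and 11.90 after heat shock. nsEP lay below sham by 0.31 at the limma adjusted p of 0.852. Its other probe set went the opposite way, with 9.14, 9.24 and 9.29 after nsEP, all above the 3 sham arrays, and a ratio of 0.43 (limma adjusted p = 0.758). EIF1AX and EIF1B overlapped with sham in both comparisons at their brightest probe sets. At the third brightest and the dimmest probe sets of EIF1AX all heat shock arrays lay below sham. The ratios there were -0.80 and -0.72 (limma adjusted p = 0.0529 and 0.0595). At the other EIF1B probe set, which is dim, nsEP lay below sham by 1.07 (limma adjusted p = 0.783).

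For the factors of start codon recognition and subunit joining, EIF6 was the second gene with an unadjusted p under 0.05 after nsEP. It read 11.53, 11.79 and 11.95 in sham, 12.22, 12.09 and 12.09 after nsEP and 11.97, 12.37 and 12.18 after heat shock. Every exposed array lay above every sham array, with ratios of 0.37 (limma adjusted p = 0.657) and 0.42 (limma adjusted p = 0.178), neither past the threshold. EIF5, the GTPase activator of eIF2, read 12.97, 13.10 and 13.33 in sham, 13.45, 13.25 and 13.20 after nsEP and 13.46, 13.32 and 13.45 after heat shock, with overlapping groups and ratios of 0.17 and 0.28. EIF5B had -0.16 and 0.18.

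Probe sets of 1 gene did not always give 1 direction. Over the 108 probe sets heat shock called 2 higher and 5 lower against sham, where 1.81% and 2.36% of all probe sets were called, and nsEP called 0 and 0, where 0.0513% and 0.00732% were. Between nsEP and heat shock 4 were higher and 3 lower, where 2.31% and 2.65% of all were. Among the 28 genes with several probe sets, 15 had ratios of both signs after nsEP and 15 after heat shock. In EIF5 the third brightest probe set read 12.56, 12.78 and 12.67 in sham, 12.69, 12.79 and 12.65 after nsEP and 11.82, 11.92 and 11.80 after heat shock. It fell by 0.82 after heat shock (SE 0.13, limma adjusted p = 0.00379) and was 0.86 higher after nsEP than after heat shock (limma adjusted p = 0.00256), while the other 4 probe sets of EIF5 lay between 0.17 and 0.28 after heat shock.

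EIF2S1 was also split. Its second brightest probe set read 11.58, 11.83 and 11.90 in sham and 10.95, 11.38 and 11.01 after heat shock, a fall of 0.66 on the log2 scale (SE 0.17, limma adjusted p = 0.0487), against 0.42 at the brightest and -0.14 at the dimmest. The calls upward came from dimmer probe sets of EIF1 (1.01, limma adjusted p = 0.0478) and EIF2B5 (1.12, limma adjusted p = 0.0497). In EIF2B5 that probe set read 7.14, 7.14 and 7.22 in sham, 7.30, 6.92 and 6.27 after nsEP and 8.31, 8.33 and 8.22 after heat shock, with no overlap between heat shock and the rest. Which transcript forms these probe sets read was not tested.

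Genes that regulate the initiation factors or follow them in translation were taken from 4 lists, with 38 of 43 genes measured. After nsEP 0 of 38 were called. After heat shock 2 were called higher and 5 lower, and between nsEP and heat shock 5 were called higher and 2 lower. The background shares are those of all genes given above. Of the 7 genes that set the phosphorylation of eIF2, 1 rose and 1 fell after heat shock. PPP1R15A, the inducible subunit that brings a phosphatase to eIF2, read 8.37, 8.27 and 8.06 in sham, 8.98, 10.01 and 10.02 after nsEP and 11.14, 10.63 and 10.80 after heat shock. The 3 groups did not overlap. After heat shock it rose by 2.62 on the log2 scale, or 6.17-fold (SE 0.26, limma adjusted p = 0.000133), nsEP gave 1.44 (95% interval 0.88 to 2.01, limma adjusted p = 0.0958), and the difference between them was -1.18 (limma adjusted p = 0.0209).

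PPP1R15B, the constitutive counterpart of PPP1R15A, went the other way. It read 11.42, 11.93 and 11.38 in sham, 12.09, 12.15 and 11.34 after nsEP and 10.29, 10.84 and 10.35 after heat shock. It fell by 1.08 after heat shock (SE 0.24, limma adjusted p = 0.0231) and was 1.37 higher after nsEP than after heat shock (limma adjusted p = 0.00546), while sham and nsEP overlapped. The 4 eIF2 kinase genes EIF2AK1 to EIF2AK4 ranged from -0.35 to 0.08 after heat shock and from -0.25 to 0.03 after nsEP, with 0 called.

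**Figure D5:**
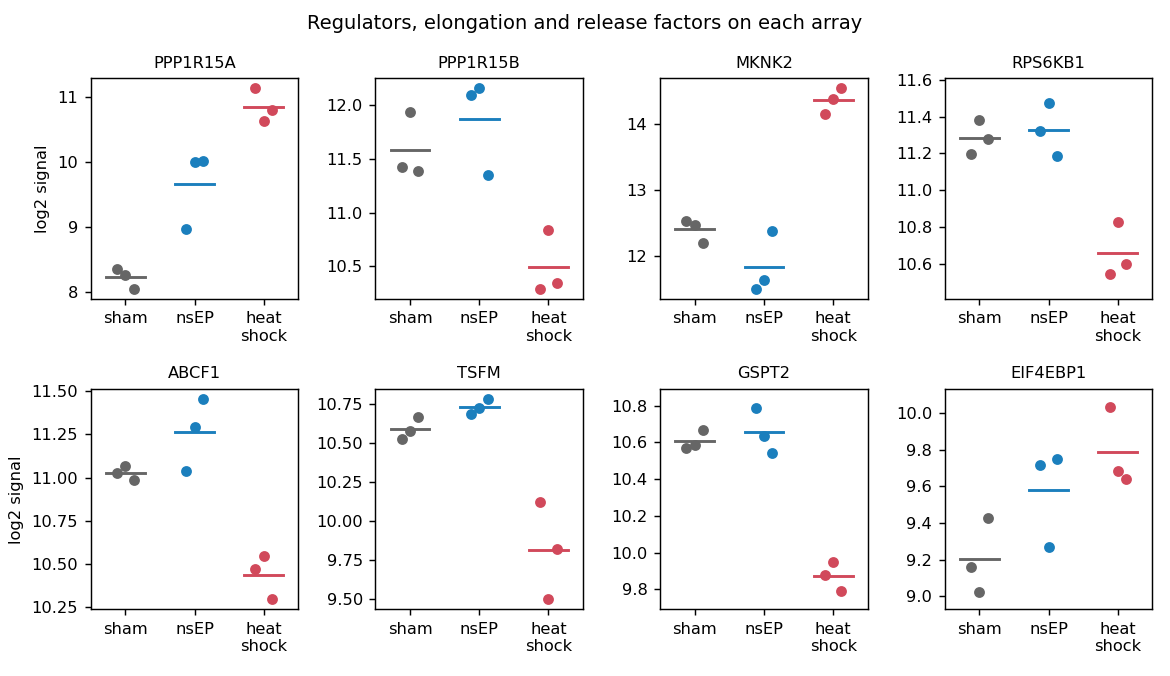
Log2 signal on each array for PPP1R15A, PPP1R15B, MKNK2, RPS6KB1, ABCF1, TSFM, GSPT2 and EIF4EBP1, with points for arrays and lines for the mean of 3, on axes that do not start at 0. MKNK2 stands above 14 only on the heat shock arrays, and RPS6KB1, ABCF1, TSFM and GSPT2 are lower on every heat shock array than on any other.

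Of the 12 regulators and partners of eIF4, 1 rose and 1 fell after heat shock. MKNK2, a kinase that phosphorylates eIF4E, read 12.53, 12.46 and 12.20 in sham, 11.50, 11.63 and 12.37 after nsEP and 14.15, 14.38 and 14.54 after heat shock. It rose by 1.96 after heat shock, or 3.88-fold (SE 0.22, limma adjusted p = 0.000287), and was lower after nsEP than after heat shock by 2.52 on the log2 scale (limma adjusted p = 5.16e-05). nsEP against sham gave -0.56 (limma adjusted p = 0.614), and nsEP replicate 3 lay within the sham range. RPS6KB1, the S6 kinase under mTOR, fell by 0.63 after heat shock (limma adjusted p = 0.0289), from 11.20, 11.38 and 11.28 to 10.54, 10.83 and 10.60, with 11.32, 11.48 and 11.19 after nsEP. EIF4EBP1, which holds eIF4E away from eIF4G, read 9.16, 9.03 and 9.43 in sham, 9.72, 9.27 and 9.75 after nsEP and 10.03, 9.68 and 9.64 after heat shock, 0.58 above sham without a call (limma adjusted p = 0.127).

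ABCF1, an ATPase that works with eIF2, was the 1 gene of 8 further initiation and reinitiation factors that fell after heat shock, by 0.59 (limma adjusted p = 0.0452). It read 11.02, 11.07 and 10.98 in sham, 11.04, 11.30 and 11.46 after nsEP and 10.47, 10.54 and 10.29 after heat shock. Of 11 elongation and release factors 2 fell and 0 rose. TSFM, the mitochondrial nucleotide exchange factor of elongation, fell by 0.78 (limma adjusted p = 0.021) and GSPT2, a release factor GTPase, by 0.73 (limma adjusted p = 0.0105). In both the heat shock arrays were the lowest 3 of the 9. EEF1A1, EEF1D and EEF2, core elongation factors, had ratios of 0.47, 0.53 and 0.43 after heat shock, none called.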

How the data were processed

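Total RNA of 9 Jurkat samples was labelled and hybridised to Affymetrix Human Genome arrays of 54675 probe sets. The deposited values are log2 signals that the authors made with MAS5, the tool named in the submitters' processing notes, which reduces the probes of a probe set to a single value. Every array had been brought to the same trimmed mean, 500.1 once the logs were undone. No background filter had been applied, and detection calls were not used here. Scaling to a common mean fixes the total, so a ratio is relative to the other transcripts on the array.

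A linear model with a mean for each group was fitted to all 9 arrays (limma 3.58.1, R 4.3.3, eBayes with a variance trend on signal), and two-sided tests were adjusted by Benjamini-Hochberg over the 54613 probe sets that are not Affymetrix controls. A call is an adjusted p under 0.05. With 3 arrays against 3 an exact permutation test cannot go below p = 0.1, and the number of arrays limits the precision. The fitting was tested on simulated data. Of the probe sets, 41091 had 1 gene symbol in the platform table, 1801 had several and 11721 none listed. All 42 symbols were current in RefSeq.

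The members and the gene lists were chosen with earlier results of these data known. Named were every called member, up to 2 further members of each role with the largest ratio, EIF1, EIF2S1, EIF4A1, EIF4E, EIF4G1 and EIF5 whatever their values, and from each pathway list up to 4 called genes or, failing calls, 2 with the smallest p. EIF4A3, EIF3K, EIF5B and the other members and pathway genes named beyond this rule were chosen after their values were seen. Alternatives were other variance models, array weights, the methods' t-test, 3 other scalings, 2 treatments of dim values, the replicate number as a block, 2 other choices of probe set and leaving out each array. Same-numbered samples correlated between -0.16 and 0.22 in their deviations from group means, so the numbers were not taken as pairs. Groups come from the sample titles.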

Additional observations from a re-analysis of the deposited data

How the results depend on the processing

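For nsEP against sham 0 initiation factor genes were called under all 22 alternatives, and the median stayed between -0.04 and 0.07. For heat shock against sham the count of 1 became 0 without the variance trend and by the methods' t-test, 2 with 32 signal units added, quantile normalization or the replicate block, 3 with spike-in scaling, 4 with centred arrays or the gene median over probe sets, 5 with dim probe sets left out or only the 6 arrays compared, and 7 with array weights. Leaving out an array gave 0 to 7, with 7 without nsEP replicate 3, 2 without nsEP replicate 1 and 0 otherwise. The median of 0.28 became 0.051 by quantile normalization, -0.029 by centring and -0.75 by spike-ins. For nsEP against heat shock the count of 3 became 0 without the trend and by the t-test, 1 with only the 6 arrays and 6 by centring, and ran from 0 (without heat shock replicate 1) to 7 (without nsEP replicate 3) with 1 without heat shock replicate 3 or nsEP replicate 2. Its median of -0.22 became -0.090 by quantile normalization, 0.10 by centring and 0.73 by spike-ins, and ran from -0.35 to -0.18 with an array left out. With the gene median over probe sets the sign of the ratio turned in 10 of 42 genes for nsEP against sham, 8 for heat shock against sham and 12 for nsEP against heat shock. Where a call stood on either side it turned to -0.66 for EIF2S1 after heat shock and to 0.60 for EIF5 and -0.089 for EIF5A2 between nsEP and heat shock. The replicate block, as a shared number only, gave 0, 2 and 2 calls in the 3 comparisons, and EIF4E between nsEP and heat shock was no longer called (limma adjusted p = 0.0601). The cause of these shifts was not tested beyond what each setting changes.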
